A study of Homo sapiens with 6 samples.

Results

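Examined here are 8 protein-coding genes along a run of the chromosome 15q25 locus: IREB2, CHRNA5, CHRNA3, CHRNB4, ADAMTS7, MORF4L1, CTSH and RASGRF1. They were selected on the log2 fold changes of CHRNA3 and ADAMTS7, with genes near them on either side. HYKK and PSMA4, which lie between IREB2 and CHRNA5, are not in the set and are given with the neighbours. CHRNA3 and ADAMTS7 rank 11th and 22nd from the top among 16199 tested genes by log2 fold change in the single comparison of the study. The set is 8 of 26485 genes in the count table, and all 8 passed the filter on low counts. Since the values of this comparison chose the set, they are given below as a description, and no p-value is given for its members.

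The samples were cultures of EndoC-βH1, a line of human pancreatic beta cells that makes insulin. Every culture carried lentiCRISPRv2, a lentiviral vector that brings in the Cas9 nuclease and antibiotic resistance, and was kept as an antibiotic-selected stable line. In 3 libraries, called Empty (genotype label WT), the vector had no guide. In 3 libraries, called sgZHX3-3 (genotype label ZHX3 KO), it had 1 guide RNA directed at the first coding exon of ZHX3, a nuclear protein with zinc fingers and homeodomains. The labels number biological replicates 1 to 3 in each group but do not tell whether these are separately made lines. The errors and p-values may therefore measure only the spread between cultures. ZHX3 RNA was higher in the libraries labelled sgZHX3-3 than in Empty, at 177 ± 8.62 against 105 ± 4.19 CPM (the count scaled to the size of its library, SD, n = 3), so RNA level does not show a loss of ZHX3 and directions below refer to the labels alone.

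CHRNA5, CHRNA3 and CHRNB4 encode subunits of nicotinic acetylcholine receptors, cation channels of the cell membrane that are built of several subunits and open when acetylcholine binds. An alpha3 subunit with a beta4 subunit makes the main receptor of autonomic ganglia, and alpha5 joins other subunits as an accessory one. ADAMTS7 is a secreted metalloprotease of the extracellular matrix, and variants at this locus are known from genetic studies of smoking, lung disease and coronary artery disease. IREB2 encodes IRP2, which binds iron-responsive elements in messenger RNA. MORF4L1 encodes MRG15, a chromatin protein that reads histone methylation, CTSH encodes the lysosomal protease cathepsin H, a gene known from genetic studies of type 1 diabetes, and RASGRF1 encodes a calcium-responsive exchange factor that activates RAS.

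In the GENCODE 29 gene models (GRCh38) the 8 genes span 653 kb of chromosome 15. IREB2 (ENSG00000136381.12, chr15:78437431-78501456), CHRNA5 (ENSG00000169684.13, chr15:78565520-78595269) and MORF4L1 (ENSG00000185787.14, chr15:78810487-78898133) lie on the plus strand. CHRNA3 (ENSG00000080644.15, chr15:78593052-78621295), CHRNB4 (ENSG00000117971.11, chr15:78624119-78727754), ADAMTS7 (ENSG00000136378.14, chr15:78759203-78811431), CTSH (ENSG00000103811.16, chr15:78921058-78949574) and RASGRF1 (ENSG00000058335.15, chr15:78959947-79090773) lie on the minus strand. CHRNA5 and CHRNA3 converge, and their last 2218 bases overlap, of which 198 bases are exonic in both: 5.47% of the exon length of CHRNA5 and 4.16% of that of CHRNA3. No source used here gives the strandedness used in counting, so reads from those 198 bases could be split, lost or assigned to either gene. An antisense gene, AC027228.2, which is not in the count table, overlaps a further stretch of CHRNA5, with 832 exonic bases (23.0% of its exon length), and AC011944.1, likewise not in the table, overlaps 618 exonic bases (6.22%) of RASGRF1. Their counts are uncertain for the same reason. ADAMTS7 and MORF4L1 start head to head in these models, with 945 bases shared and no shared exonic base.

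RefSeq promoter windows (GRCh38.p14, the 250 bases before a start site) were found for 6 of the 8 genes, with none for CHRNA5 and RASGRF1. The stretches below are those of the 3 genes of higher RNA with a window, followed by IREB2, whose groups overlapped, to show where GC boxes stand. The stretches were cut differently, so base composition is compared below over whole windows only. Capitals mark each GC box, the letters GGGCGG or their reverse complement CCGCCC, with overlapping matches counted separately. Each is written 5′ to 3′ on the strand of its gene: CHRNA3, minus strand, the stretch from the first to the last GC box, chr15:78621014-78621042; CHRNB4, minus strand, the part of the window outside annotated exons, chr15:78641246-78641460; ADAMTS7, minus strand, the whole window, chr15:78811465-78811714; IREB2, plus strand, the part of its first window outside annotated exons, chr15:78437966-78438175.
CHRNA3: CCGCCCcgcgcacgcCCGCCCGCCCGCCC
CHRNB4: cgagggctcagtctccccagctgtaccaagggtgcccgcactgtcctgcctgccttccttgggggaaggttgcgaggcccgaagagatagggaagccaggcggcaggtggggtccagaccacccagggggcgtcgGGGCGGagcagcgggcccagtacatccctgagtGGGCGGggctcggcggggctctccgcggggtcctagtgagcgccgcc
ADAMTS7: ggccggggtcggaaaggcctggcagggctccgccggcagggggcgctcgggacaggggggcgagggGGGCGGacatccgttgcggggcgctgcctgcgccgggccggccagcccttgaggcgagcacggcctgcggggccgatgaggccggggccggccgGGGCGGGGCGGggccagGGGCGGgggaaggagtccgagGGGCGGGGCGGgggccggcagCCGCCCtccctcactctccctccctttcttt
IREB2: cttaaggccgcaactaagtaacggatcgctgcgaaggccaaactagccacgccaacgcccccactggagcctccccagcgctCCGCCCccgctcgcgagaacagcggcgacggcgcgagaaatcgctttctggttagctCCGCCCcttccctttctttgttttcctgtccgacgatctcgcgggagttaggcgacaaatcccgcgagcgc

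The ADAMTS7 window had 7 GC boxes and a GC content of 80.8%, the CHRNA3 window 4 boxes and 73.6%, and the CHRNB4 window 3 boxes and 72.4%. CTSH had 5 boxes and 74.4%, and MORF4L1 1 box and 75.6%, so their GC contents lay between those of CHRNA3 and ADAMTS7. A relation of the windows to the fold changes was not tested. IREB2 had 2 start sites in the table, with 2 boxes and 63.2% in the first window and no box and 65.6% in the second. Among all 35116 RefSeq windows of this length the median GC content was 58.0%, and 42.6% held at least 1 GC box on either strand. CCAAT and TATAA, found in 32.0% and 18.9% of all windows on either strand, were in none of the 7 windows of these genes. The E-box CANNTG, found in 61.8% of all windows, occurred once in CHRNA3, in CTSH and in the second IREB2 window, and 2 times in CHRNB4. These matches are a description of the letters and show neither binding nor its absence. RefSeq places the starts of IREB2, CHRNA3, CHRNB4, MORF4L1 and CTSH inside the longer GENCODE models, so the windows of ADAMTS7 and MORF4L1 do not adjoin. All 250 bases of the CHRNA3 window, with the stretch printed above, lie in annotated exons of CHRNA3.

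The 6 libraries held 45101454 to 61051884 counts, and 3 counts correspond to 0.0498 to 0.0671 CPM in them. On the first principal component, with 52.3% of the variance, Empty 1 lay at −4.00. Empty 2 (−15.8) and Empty 3 (−18.3) lay lower and the sgZHX3-3 libraries (8.15, 11.4 and 18.6) higher. On the second component, with 20.4% of the variance, Empty 1 lay at 15.3 and the other libraries from −9.95 to 6.96. Values without Empty 2 and 3 are therefore given below for each of the 8 genes, and for other genes where a call was lost or gained. Then Empty 1 alone stands for its group and is assumed to vary like the others. All 10 beta cell markers were at or above 1 CPM and summed to between 8181 and 9994 CPM in Empty and between 9971 and 11397 CPM in sgZHX3-3, and 7 of them rose (IAPP, PDX1, MAFA, NKX6-1, SLC30A8, PCSK1 and ABCC8, by edgeR at an adjusted p of 0.05). Markers of other islet endocrine cells summed to 77.5 to 87.8 CPM over 7 genes in Empty and 67.6 to 76.6 CPM in sgZHX3-3, with IRX2 called lower. Acinar and ductal markers summed to 81.9 to 92.0 CPM over 8 genes in Empty and 94.5 to 100.3 CPM in sgZHX3-3. CPA1 among them was called higher. Over all tested genes, 7.11% were called higher and 4.98% lower. The part of these marker sums in the values below was not tested. In bulk RNA, fewer cells of a kind and less RNA per cell cannot be told apart.

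The nicotinic receptor genes of the locus did not shift together. CHRNA3 RNA was 3.08 times as high in the sgZHX3-3 libraries as in Empty, CHRNB4 RNA 1.59 times, and CHRNA5 RNA 0.870 times. CHRNA3, the alpha3 subunit, stood at 1.39, 1.15 and 1.30 CPM in Empty 1, 2 and 3 and at 4.25, 4.25 and 3.34 CPM in sgZHX3-3 libraries 1, 2 and 3. The groups lay far apart, and the lowest guide library was the third. These values rest on 65, 68 and 64 counts in Empty and on 190, 212 and 201 in sgZHX3-3. The means were 1.28 ± 0.122 and 3.95 ± 0.528 CPM (SD, n = 3). This was a log2 difference of 1.62 (SE 0.161), and of 1.5 without Empty 2 and 3.

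CHRNB4, the beta4 subunit that pairs with alpha3, was at 5.15, 5.49 and 5.50 CPM in Empty and at 8.86, 8.74 and 8.07 CPM in sgZHX3-3. All 3 guide libraries were higher than all 3 Empty libraries, with little spread inside either group. Its log2 fold change was 0.67 (SE 0.097), and 0.73 without Empty 2 and 3. CHRNA5, the accessory subunit, was at 47.3, 42.0 and 44.2 CPM in Empty and at 35.5, 39.1 and 41.4 CPM in sgZHX3-3. Here the guide libraries were all the lower ones, but the highest of them (41.4 CPM) came within 1 CPM of the lowest Empty library (42.0 CPM). The log2 difference of CHRNA5 was −0.20 (SE 0.072) and did not pass the threshold of the fit, an edgeR adjusted p of 0.05. It did pass with library totals in place of normalization factors, at −0.24, and was −0.29 without Empty 2 and 3.

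**Figure D1:**
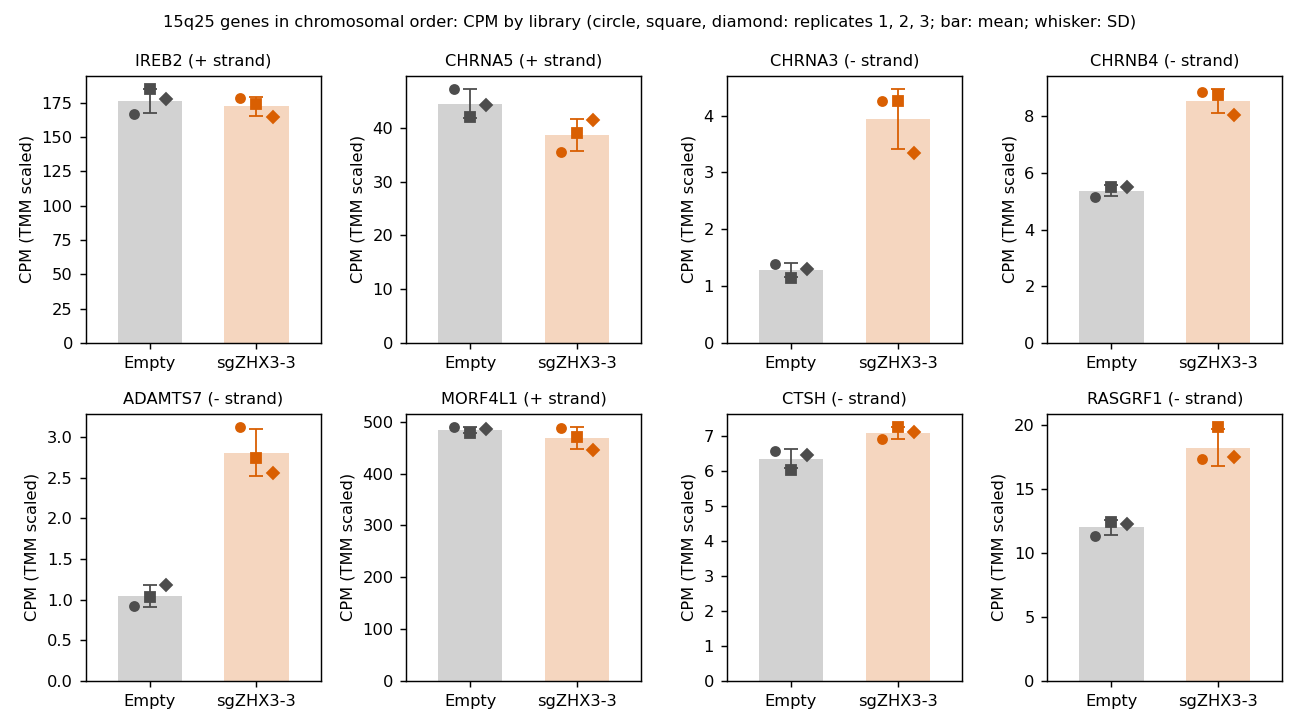
RNA level of the 8 genes in each of the 6 libraries, in CPM on linear axes from 0, with bars for the group means, whiskers for the SD and 1 symbol for each replicate number. CHRNA3, CHRNB4, ADAMTS7 and RASGRF1 lie higher in all 3 sgZHX3-3 libraries, whereas the groups of IREB2 and MORF4L1 overlap.

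Within each library the 3 subunit genes can be set against each other, which no library scaling touches. Per exon length, CHRNA3 made up 2.03%, 1.86% and 2.02% of the summed level of the 3 genes in Empty and 7.16%, 6.63% and 5.09% in sgZHX3-3. CHRNB4 made up 7.20%, 8.53% and 8.14% in Empty and 14.3%, 13.1% and 11.8% in sgZHX3-3. CHRNA5 had the complement, with 90.8%, 89.6% and 89.8% of the sum in Empty and 78.6%, 80.3% and 83.1% in sgZHX3-3. CHRNA5 was the most abundant of the 3 RNAs in all 6 libraries, and the shares of the groups did not overlap for any of the 3 genes. In plain counts, CHRNA3 had 2.94%, 2.74% and 2.95% of the CHRNA5 count in Empty and 12.0%, 10.9% and 8.06% in sgZHX3-3. The third guide library lay nearest to Empty in each of these ratios. Because both genes overlap at their ends, this ratio depends on how reads of the shared exonic bases were assigned.

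**Figure D2:**
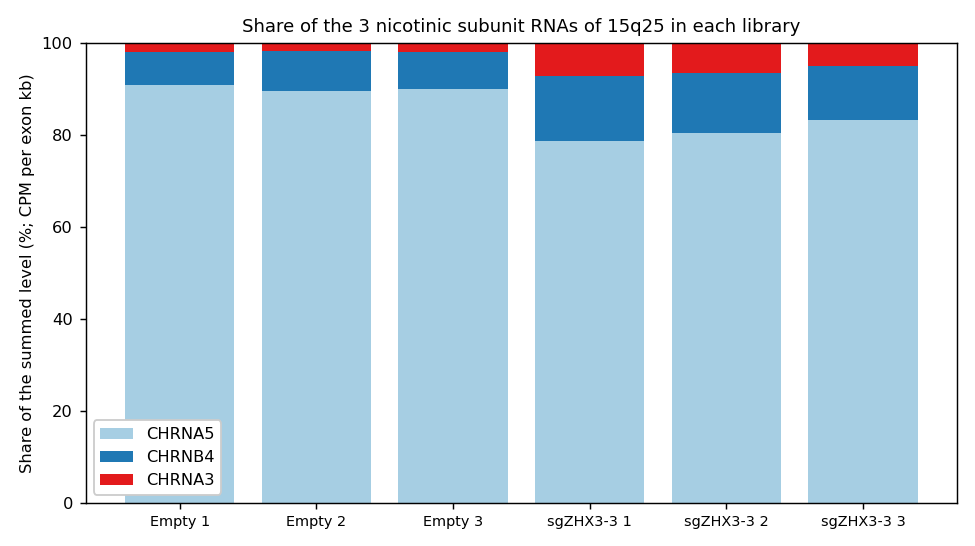
Share of CHRNA5, CHRNB4 and CHRNA3 in the summed level per exon kb of the 3 genes, in percent, for each library. CHRNA3 takes 1.86% to 2.03% of the sum in the Empty libraries and 5.09% to 7.16% in the sgZHX3-3 libraries, and CHRNA5 has the largest share in each.

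ADAMTS7 RNA was 2.68 times as high in the sgZHX3-3 libraries. It stood at 0.919, 1.03 and 1.18 CPM in Empty, from 43, 61 and 58 counts, and at 3.13, 2.75 and 2.56 CPM in sgZHX3-3, from 140, 137 and 154 counts. The lowest guide library was more than 1 CPM higher than the highest Empty library. The log2 fold change was 1.42 (SE 0.172), and 1.61 without Empty 2 and 3. ADAMTS7 has near-identical copies in the genome, one of which, ADAMTS7P1, is in the count table with 21, 28 and 22 counts in Empty and 14, 35 and 34 in sgZHX3-3. The count of ADAMTS7 is uncertain to the extent that reads matching several copies were shared or dropped, and no source used here tells how such reads were treated.

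MORF4L1, whose GENCODE model starts within the first kb of ADAMTS7 on the other strand, was at 491, 479 and 485 CPM in Empty and at 489, 471 and 446 CPM in sgZHX3-3. The groups overlapped, and its log2 difference was −0.05 (SE 0.051), and −0.07 without Empty 2 and 3. IREB2, at the other end of the run, was at 167, 185 and 178 CPM in Empty and at 179, 174 and 165 CPM in sgZHX3-3, again with overlap and with a log2 difference of −0.03 (SE 0.056), and 0.05 without Empty 2 and 3. These genes had the most counts of the set, from 7815 to 28318 in a library, and the smallest errors.

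CTSH and RASGRF1 close the run. CTSH was at 6.58, 6.05 and 6.46 CPM in Empty and at 6.94, 7.28 and 7.12 CPM in sgZHX3-3. The groups were separate by a small gap, and the log2 difference of 0.16 (SE 0.096), or 0.11 without Empty 2 and 3, did not pass the threshold. RASGRF1 was at 11.4, 12.4 and 12.2 CPM in Empty and at 17.3, 19.9 and 17.5 CPM in sgZHX3-3. The groups were well separated, with a log2 fold change of 0.60 (SE 0.083) and of 0.68 without Empty 2 and 3.

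By the threshold of the fit, 4 of the 8 genes were higher in sgZHX3-3 (CHRNA3, CHRNB4, ADAMTS7 and RASGRF1) and 0 were lower, against 7.11% of all tested genes called higher, 4.98% called lower and 12.1% called in either direction. At an unadjusted p of 0.05 the counts were 4 higher and 1 lower, and both DESeq2 and limma-voom called 4 higher and 0 lower. The groups did not overlap for 6 of the 8 genes, 5 with sgZHX3-3 higher and 1 with it lower. Among all tested genes the share without overlap was 32%, with 16% in each direction. Nothing is read from these counts, since the comparison chose the set. The median log2 fold change of the 8 genes was 0.38, beside −0.0020 over all tested genes. The least of the 4 genes past the threshold was RASGRF1 (0.60) and the nearest outside it were CHRNA5 (−0.20) and CTSH (0.16).

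Ordered by level per exon length in Empty, MORF4L1 came first at 73.6 ± 0.918 CPM per kb (SD, n = 3), followed by IREB2 at 16.3 ± 0.821 and CHRNA5 at 12.3 ± 0.737. RASGRF1 (1.21 ± 0.058), CHRNB4 (1.08 ± 0.040) and CTSH (1.08 ± 0.047) were next, and CHRNA3 (0.269 ± 0.026) and ADAMTS7 (0.135 ± 0.017) came last. CHRNB4 and CTSH did not differ beyond their spread in Empty, while the library values of the other neighbours in this order did not overlap. In sgZHX3-3 CHRNB4 was at 1.72 ± 0.086 and CTSH at 1.21 ± 0.029 CPM per kb, and CHRNB4 overlapped RASGRF1 (1.84 ± 0.143) instead. CHRNA3 reached 0.828 ± 0.111 and ADAMTS7 0.364 ± 0.038 CPM per kb, so both remained the lowest of the 8 genes. Among the 8 genes, those with the largest fold changes were the scarcest RNAs. In Empty, CHRNA3 lay at the 10.6th and ADAMTS7 at the 5.80th percentile of tested genes by level per kb.

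The fold changes split by strand along the locus. All 5 genes on the minus strand had positive log2 values, from 0.16 (CTSH) to 1.62 (CHRNA3) with a median of 0.67, and the 3 genes on the plus strand had values from −0.20 (CHRNA5) to −0.03 (IREB2). The strands also differed in base composition, with a GC content of transcripts of 50.3% to 65.7% on the minus strand and 38.3% to 41.9% on the plus strand. With trends in transcript length and GC content removed, all 5 minus-strand genes were still positive (median 0.62), while IREB2 and MORF4L1 turned to 0.05 and 0.03. Over all tested genes there was no such split. Values above 0 were found for 3746 of 7638 minus-strand genes (median −0.0040) and 3882 of 7940 plus-strand genes (median −0.0046). Called higher were 7.0% and 7.49% of them. Among the tested neighbours within 1 Mb, 7 of 8 minus-strand genes were above 0 (median 0.19). So were 5 of 9 plus-strand neighbours (median 0.05), whereas all 3 plus-strand genes of the set were below 0. The minus-strand neighbours include ST20 and MTHFS, which both overlap the read-through gene ST20-MTHFS. The split is a description of 8 chosen genes and was not tested.

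**Figure D3:**
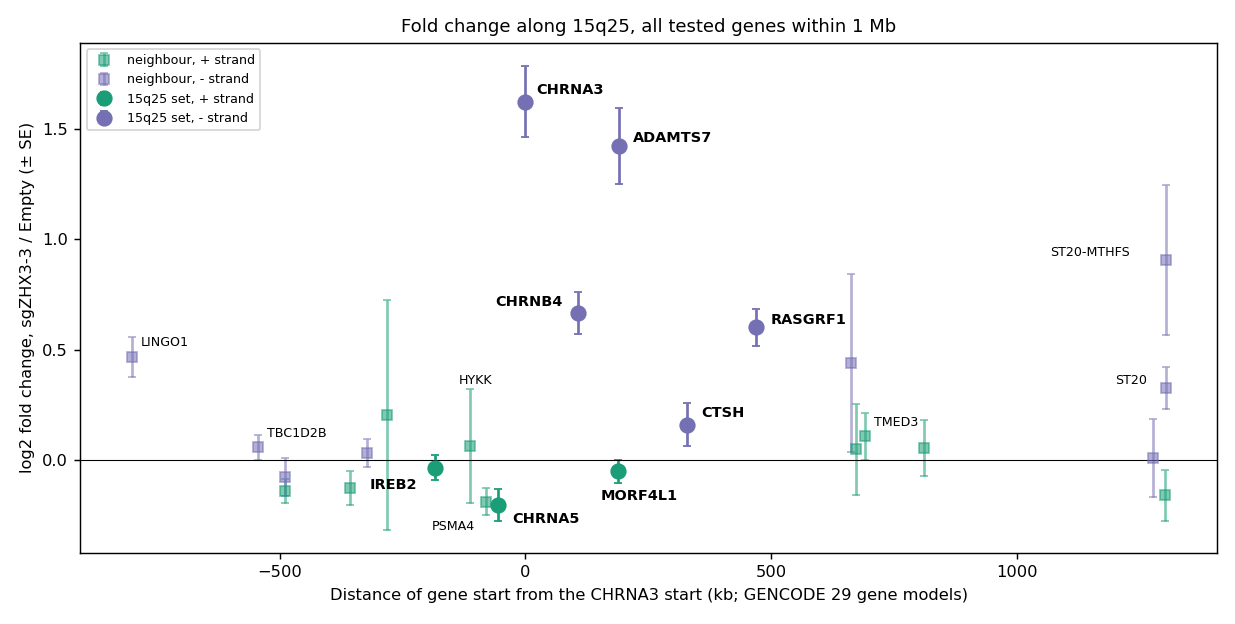
Log2 fold change of sgZHX3-3 over Empty, with its SE, for the 8 genes and the 17 tested neighbours within 1 Mb, against the distance of each gene start from the CHRNA3 start in kb. The highest points are CHRNA3 (1.62) and ADAMTS7 (1.42), on whose values the set was selected. Plus-strand genes lie near 0 on either side of them.

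Genes around and between the 8 gave a scale for the locus. Within 1 Mb of the run the table held 23 other genes, of which 17 were tested. Of the 17, 2 rose (11.8%) and 0 fell, beside 7.11% and 4.98% of all tested genes. The median log2 fold change of the 17 was 0.06. At an unadjusted p of 0.05 there were 3 higher and 2 lower, and DESeq2 called 2 higher and 1 lower. HYKK, a hydroxylysine kinase, and PSMA4, a subunit of the proteasome core, lie between IREB2 and CHRNA5. HYKK was at 0.654 ± 0.144 and 0.689 ± 0.089 CPM in Empty and sgZHX3-3 (log2 difference 0.07, SE 0.257, edgeR adjusted p = 0.898). PSMA4 was at 117 ± 2.25 and 103 ± 7.05 CPM, and its difference of −0.19 (SE 0.059) had an edgeR adjusted p of 0.0587. PSMA4 passed the threshold without Empty 1 or without sgZHX3-3 library 1 (edgeR adjusted p from 0.0362 to 0.0395), with library totals, without the expression filter and with DESeq2.

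Both neighbours that rose lie on the minus strand, outside the run. LINGO1, a membrane protein of neurons, rose from 23.0 ± 3.22 to 31.8 ± 1.70 CPM (log2 fold change 0.47, SE 0.091, edgeR adjusted p = 0.00604). Its Empty 1 value of 26.7 CPM stood above those of Empty 2 and 3 (21.0 and 21.4 CPM), and without the latter 2 libraries its difference was 0.25 with an edgeR adjusted p of 0.286. ST20 rose from 7.05 ± 0.466 to 8.85 ± 0.268 CPM (0.33, SE 0.094, edgeR adjusted p = 0.0388). That call was lost on leaving out Empty 2, Empty 3 or any one sgZHX3-3 library, with edgeR adjusted p from 0.0793 to 0.162, and without Empty 2 and 3 together (0.22, 0.475). ST20 shares bases with the read-through gene ST20-MTHFS, so its count is uncertain. The largest log2 value among the 17 neighbours was that of ST20-MTHFS, at 0.91 (SE 0.339, edgeR adjusted p = 0.101). It was at 0.337 ± 0.141 CPM in Empty, from 9, 28 and 17 counts. In sgZHX3-3 it was at 0.644 ± 0.151 CPM, from 30, 24 and 47 counts. The groups nearly touched, with 0.473 CPM the highest in Empty and 0.481 CPM the lowest in sgZHX3-3. Of all tested genes, 16% had no overlap with sgZHX3-3 higher. ST20-MTHFS is named after its values were seen. CHRNA3 and ADAMTS7, at 1.62 and 1.42, lay above it, but the set was selected on their values, so nothing is read from that.

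ADAMTS7 was also the gene whose pattern over the libraries was nearest to that of CHRNA3. Likeness was measured as the root mean square distance between log2 CPM values, each centred on the gene's mean over the 6 libraries, among the 14052 genes that averaged 1 CPM or more. The nearest gene to CHRNA3 was ADAMTS7 (distance 0.190), followed by CHRNA4 (0.193) and SDK2 (0.220). For ADAMTS7 the order was SDK2 (0.163), CHRNA3 (0.190) and FRAS1 (0.200). CHRNB4 ranked 110th from CHRNA3 and 77th from ADAMTS7, RASGRF1 152nd and 121st, and CHRNA5 12473rd and 12755th. With 6 libraries in 2 groups, genes of like fold change rank as near by construction, so this is a second view of the same contrast.

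SDK2, a synaptic adhesion protein, was at 4.41 ± 0.328 CPM in Empty and 10.4 ± 0.284 CPM in sgZHX3-3. FRAS1, an extracellular matrix protein of basement membranes, was at 11.1 ± 1.12 and 24.3 ± 2.19 CPM. CHRNA4 lies on chromosome 20 and SDK2 on chromosome 17, so neither shares the 15q25 region with the genes whose pattern it resembles.

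Among 13 nicotinic subunit genes elsewhere in the genome 7 were tested, 1 rose and 0 fell. For this and each list below, the share over all tested genes was 7.11% called higher and 4.98% lower. The gene that rose was CHRNA4, the alpha4 subunit, at 2.37, 2.08 and 1.91 CPM in Empty and 5.35, 5.59 and 5.53 CPM in sgZHX3-3. Its log2 fold change was 1.37 (SE 0.128, edgeR adjusted p = 5.3e-05), of a size with that of CHRNA3. CHRNB2, the beta2 subunit that pairs with alpha4 and the most abundant of the list (here and below by mean CPM over all 6 libraries), was at 101 ± 4.82 and 102 ± 3.48 CPM (0.02, SE 0.056, edgeR adjusted p = 0.878). The median of the list was −0.19. None of the 7 was called lower by edgeR, at an unadjusted p of 0.05, by DESeq2 or by limma-voom.

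Of 14 genes for receptor assembly and modulation 10 were tested, 1 rose and 1 fell (median 0.00042). CRELD2, a protein of the endoplasmic reticulum, fell from 45.5 ± 3.03 to 34.4 ± 0.858 CPM (−0.40, SE 0.065, edgeR adjusted p = 0.00194). Without Empty 2 and 3 the adjusted p of CRELD2 was 0.0515. The most abundant, CANX (calnexin, a membrane chaperone), was at 2012 ± 35.9 and 1993 ± 77.9 CPM. Leaving out sgZHX3-3 library 1 brought the number that fell to 2.

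Of 13 genes for acetylcholine supply, breakdown and muscarinic receptors 7 were tested and 2 rose (median 0.07). SLC18A3, the vesicular acetylcholine transporter, rose from 22.6 ± 1.47 to 27.4 ± 0.505 CPM (0.28, SE 0.070, edgeR adjusted p = 0.0215). CHRM3, the muscarinic M3 receptor of beta cells, rose from 1.37 ± 0.220 to 2.21 ± 0.281 CPM (0.68, SE 0.181, edgeR adjusted p = 0.0284). Neither call was firm: that of SLC18A3 was lost without Empty 2, Empty 3 or any one sgZHX3-3 library (edgeR adjusted p from 0.0505 to 0.124), and that of CHRM3 without Empty 3 or sgZHX3-3 libraries 2 or 3 (0.0724 to 0.128). Without Empty 2 and 3 the values were 0.22 (0.329) and 0.83 (0.160). SLC44A1, a choline transporter and the most abundant, differed by 0.0047 on the log2 scale. None of the 7 was lower by edgeR, at an unadjusted p of 0.05, by DESeq2 or by limma-voom.

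Markers of autonomic ganglion neurons, where CHRNA3 and CHRNB4 are typical, were summed over the whole list of 10. The sum was 44.3 to 48.4 CPM in Empty and 49.9 to 52.3 CPM in sgZHX3-3. PHOX2A, HAND2 and GATA3, which help define these neurons, had 0 counts in all 6 libraries. SLC18A3 belongs to this list too, and TH, another of its members, was called higher (log2 difference 0.57). ELAVL4, the second on this list by CPM, was at 16.2 ± 0.568 CPM in Empty and 13.9 ± 1.10 CPM in sgZHX3-3 (log2 difference −0.22, not called).

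**Figure D4:**
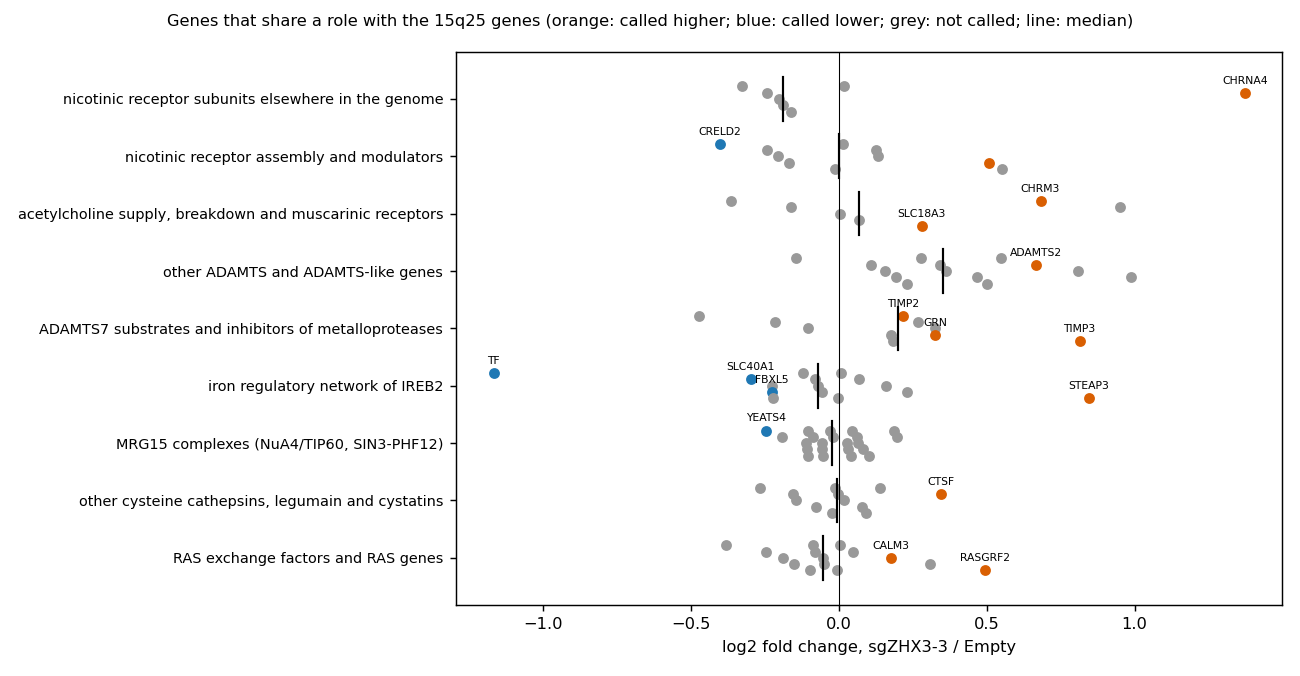
Log2 fold change of sgZHX3-3 over Empty for each tested gene of the 9 lists that share a role with the 15q25 genes, with the list median as a black line. Orange points rose and blue points fell (edgeR, adjusted p below 0.05). Names are given for the points described in the text. CHRNA4 (1.37) is the point farthest to the right and TF (−1.17), with a mean below 1 CPM in each group, the one farthest to the left.

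Among 24 other ADAMTS and ADAMTS-like genes 14 were tested, 1 rose and 0 fell. ADAMTS2, which trims procollagen, rose from 77.7 ± 3.65 to 123 ± 4.56 CPM (0.67, SE 0.057, edgeR adjusted p = 3.0e-05). The 1 called gene is 7.14% of the 14, beside 7.11% of all tested genes called higher. The log2 values of 13 of the 14 were above 0 (median 0.35), beside 8023 of all 16199 tested genes. Several of the 14 lay below 1 CPM. The count of 13 became 12 with the trend in gene span removed (median 0.25) and 11 without Empty 2 and 3 (median 0.36). ADAMTSL1, the most abundant of the list, was at 142 ± 1.18 and 159 ± 3.26 CPM (0.16, SE 0.049, edgeR adjusted p = 0.0543, and 0.0278 without Empty 1). The number that passed was 4 without Empty 1, 2 without sgZHX3-3 library 3 and 3 with DESeq2. None was lower at an unadjusted p of 0.05 or by DESeq2 or limma-voom.

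Of 12 substrates of ADAMTS7 and inhibitors of metalloproteases 10 were tested and 3 rose (median 0.20). TIMP3, a matrix-bound inhibitor of ADAMTS and other metalloproteases, rose from 15.1 ± 0.332 to 26.6 ± 2.23 CPM (0.81, SE 0.077, edgeR adjusted p = 6.1e-05). GRN, the precursor of granulins and the most abundant of the list, rose from 304 ± 27.5 to 381 ± 19.1 CPM (0.33, SE 0.066, edgeR adjusted p = 0.00754). TIMP2, another inhibitor, rose from 36.9 ± 1.49 to 43.0 ± 1.74 CPM (0.22, SE 0.062, edgeR adjusted p = 0.0374). The call of GRN was lost without Empty 3 (0.0523) and that of TIMP2 without Empty 2, Empty 3 or sgZHX3-3 libraries 1 or 2 (0.0765 to 0.159), which left 1 call without Empty 3. Without Empty 2 and 3 GRN was at 0.19 (0.310) and TIMP2 at 0.24 (0.249). None fell in the main fit, 2 were lower at an unadjusted p of 0.05, 0 by DESeq2 or limma-voom, and 1 fell without Empty 1.

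Markers of fibroblasts, endothelium and immune cells, which make matrix proteases in tissue, summed to 19.3 to 23.8 CPM in Empty and 25.8 to 27.6 CPM in sgZHX3-3 over a list of 10. CDH5, which defines endothelium, had 0 counts in all libraries, and only COL1A1 and CD68 had a mean of at least 1 CPM. Their part in the ADAMTS7 values was not tested.

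All 15 genes of the iron network around IREB2 were tested, and 1 rose and 3 fell (median −0.07). STEAP3, an endosomal ferrireductase, rose from 1.75 ± 0.236 to 3.17 ± 0.281 CPM (0.85, SE 0.155, edgeR adjusted p = 0.00440, and 0.0980 without Empty 2 and 3). TF (transferrin, −1.17), SLC40A1 (the iron exporter ferroportin, −0.30) and FBXL5 (the ubiquitin ligase subunit that directs the breakdown of IRP2, −0.23) fell with edgeR adjusted p of 0.0133, 0.0274 and 0.0305. TF RNA was scarce, at 0.983 ± 0.216 CPM in Empty, from 57, 47 and 46 counts. In sgZHX3-3 it was at 0.434 ± 0.034 CPM, from 21, 20 and 26 counts. The call of TF was lost without sgZHX3-3 library 2 (0.0623), and those of SLC40A1 (0.0772 to 0.156) and FBXL5 (0.0766 to 0.132) without Empty 2, Empty 3 or sgZHX3-3 libraries 2 or 3, while 6 genes fell without Empty 1. Without Empty 2 and 3, TF was at −1.48 (0.0670), SLC40A1 at −0.20 (0.428) and FBXL5 at −0.21 (0.327). FTL, ferritin light chain and the most abundant, was at 3276 ± 756 and 2807 ± 256 CPM (−0.22, edgeR adjusted p = 0.463). It was called lower without Empty 1 (−0.40, 0.00175) and stood at 0.22 (0.332) without Empty 2 and 3.

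Of the 22 genes of MRG15 complexes, the partners of MORF4L1, all were tested, 0 rose and 1 fell (median −0.02). At an unadjusted p of 0.05 there were 2 higher and 2 lower, and DESeq2 called 1 higher and limma-voom 0. YEATS4, a histone reader, fell by 0.25 on the log2 scale (edgeR adjusted p = 0.0254), a call lost without Empty 2, Empty 3 or sgZHX3-3 libraries 2 or 3 (0.0698 to 0.101) and without Empty 2 and 3 together (−0.31, 0.134). TRRAP, the most abundant over all 6 libraries, was at 295 ± 26.9 and 339 ± 12.8 CPM (0.20, edgeR adjusted p = 0.0665), and was called higher without Empty 2 and 3 (0.35, 0.0493). Without Empty 1 or sgZHX3-3 library 1 the number that fell was 2.

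Of 16 other cysteine cathepsins, legumain and cystatins, the relatives and inhibitors of CTSH, 12 were tested and 1 rose (median −0.0068). CTSF, cathepsin F, rose by 0.35 (edgeR adjusted p = 0.00790) but not without Empty 3 (0.0526) or without Empty 2 and 3 (0.17, 0.302), and 3 genes rose without Empty 1. CTSB, the most abundant over all 6 libraries, was at 195 ± 10.7 and 214 ± 11.1 CPM (edgeR adjusted p = 0.143, and 0.0381 without Empty 1). None was lower by edgeR, at an unadjusted p of 0.05, by DESeq2 or by limma-voom.

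Of 17 RAS exchange factors, RAS genes and calmodulins, which RASGRF1 works with, 15 were tested and 2 rose (median −0.06). RASGRF2, the close relative of RASGRF1, rose by 0.49 (edgeR adjusted p = 0.0485), a call lost on leaving out any one library (0.0805 to 0.117) or Empty 2 and 3 (0.78, 0.102). CALM3, a calmodulin gene, rose by 0.18 (edgeR adjusted p = 0.0394), a call lost without any one library other than Empty 1 (0.0587 to 0.178) or without Empty 2 and 3 (0.15, 0.340), and CALM2, the most abundant, was at 701 ± 25.7 and 697 ± 76.3 CPM. None fell, with 2 lower at an unadjusted p of 0.05 and 0 by DESeq2 or limma-voom.

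Over all 9 lists 112 genes were tested, 12 rose (10.7%) and 5 fell (4.46%), with a median of 0.0049, beside 7.11% and 4.98% among all tested genes.

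The values of CHRNA3, ADAMTS7, CHRNB4 and RASGRF1 moved little with the way the counts were processed. Over 16 settings, which included other normalizations, filters and tests, each library left out in turn and Empty 2 and 3 left out together, CHRNA3 ranged from 1.5 to 1.73 and ADAMTS7 from 1.29 to 1.61 on the log2 scale. CHRNB4 ranged from 0.62 to 0.73, RASGRF1 from 0.54 to 0.68, CTSH from 0.11 to 0.19 and CHRNA5 from −0.29 to −0.12. IREB2, from −0.07 to 0.05, and MORF4L1, from −0.09 to 0.03, changed sign. CHRNA3, ADAMTS7, CHRNB4 and RASGRF1 were past the threshold in each of the 16 settings. CHRNA5 passed it in 1, and CTSH, IREB2 and MORF4L1 in none. All settings use the same 6 libraries whose values chose the set, so these passes are a description and no further support. With a log2 limit of 1, which is not among the 16, 2 of the 8 genes were called higher.

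**Figure D5:**
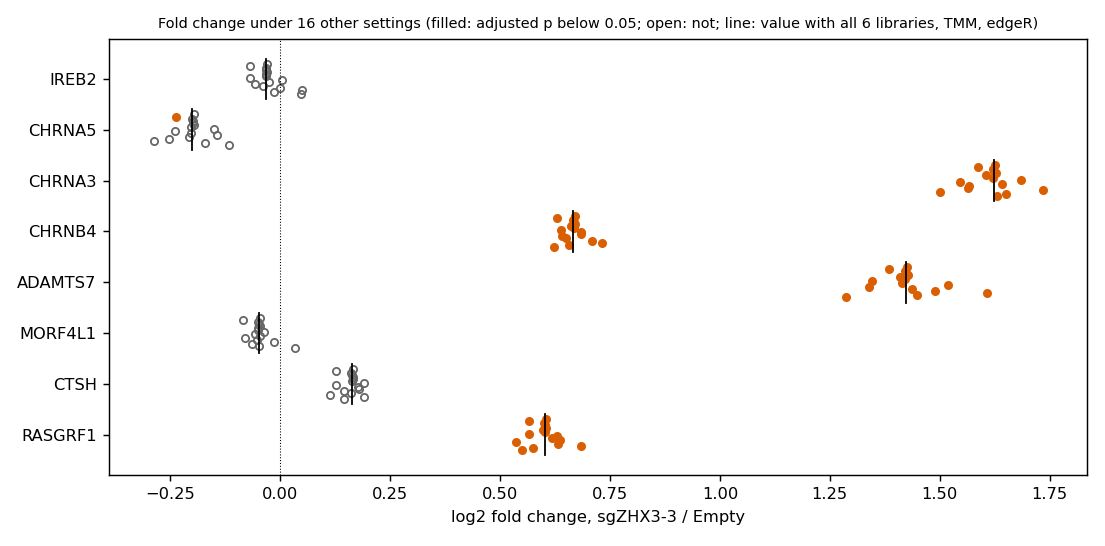
Log2 fold change of each of the 8 genes under the reported fit and under each of the 16 other settings. CHRNA3 (1.5 to 1.73) and ADAMTS7 (1.29 to 1.61) stay apart from CHRNB4 and RASGRF1 throughout, and IREB2 and MORF4L1 lie on both sides of 0.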

How the data were processed

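The authors used STAR, the build hg38 and featureCounts, per the submitters' processing notes. The tool versions, the annotation counted on, strandedness and the handling of multi-mapping reads were not given in the sources used here. Per the file headers, the deposited table has a raw count for each gene symbol in each library, without normalization. Columns were matched to samples by group name and replicate, with 0 value columns left over.

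Genes were filtered with filterByExpr (minimum count 10, minimum total 15), which kept 16199 of 26485, and scaled by TMM. All of them were fitted together with the robust quasi-likelihood test of edgeR, group being the only term, Benjamini-Hochberg adjustment over all tested genes and a threshold of 0.05. Standard errors were derived from the test's F value. CPM uses TMM-scaled library sizes, with factors from 0.984 to 1.02, and level per kb divides it by the merged exon length of GENCODE 29, in which 24582 symbols (92.8%) were found. The likeness of genes used log2 CPM with a pseudocount of 0.01 CPM. The common biological coefficient of variation was 6.91%. Computing used Python 3.11.15 with pandas 2.3.3 and matplotlib 3.10.9, and edgeR 4.0.16, DESeq2 1.42.0 and limma 3.58.1 in R 4.3.3. The fit was also tested on simulated counts with 200 changed genes, where 16 of 170 calls were false. It recovered 46% of changes of 1.25 times, 76% at 1.5 times, 88% at 2 times and 98% at 3 times.

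The 8 genes, the gene lists and the marker lists were chosen with earlier results of these data known. Named are the 8 genes, ZHX3, neighbours within 1 Mb that lie between the 8 or passed the threshold, up to 5 called genes and the most abundant gene of each list, and the 3 genes nearest to CHRNA3 and to ADAMTS7. The beta cell and other markers are named from their lists. The alternatives were DESeq2, limma-voom, RLE size factors, library totals, a looser and a stricter expression filter (none, or 1 CPM in 3 libraries), a replicate block, leaving out single libraries, leaving out Empty 2 and 3, offsets that remove trends with gene span or with transcript length and GC content, an adjusted p below 0.01 and a log2 limit of 1. A few genes of the lists are not reported by name.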

Additional observations from a re-analysis of the deposited data

How the results depend on the processing

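Of all tested genes 1151 were higher and 807 lower. The counts were 209 and 40 without Empty 2 and 3, 467 and 194 at an adjusted p below 0.01, 60 and 46 with a log2 limit of 1, and from 474 to 1792 higher and 184 to 1499 lower with each library left out in turn, the most without Empty 1. With library totals only 904 were higher and 1272 lower, and the median of all genes was −0.04. The deviations of same-numbered libraries from their group means correlated at −0.24, 0.13 and −0.23. The largest correlation was 0.36, between Empty 1 and sgZHX3-3 library 3. Such deviations sum to 0 within each group, so these values cannot exclude a pairing. With the replicate number as a block, 516 genes were called higher and 239 lower, 1 neighbour and 7 list genes higher and 2 list genes lower, and the 4 calls among the 8 genes were unchanged.

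Of the 8 genes 4 were called higher and 0 lower. With a log2 limit of 1 there were 2 higher, and with library totals 1 lower. IREB2 turned to 0.048 without Empty 2 and 3 and to 0.046 with length and GC trends removed, and ranged from −0.068 to 0.0026 with single libraries left out. MORF4L1 turned to 0.034 with length and GC trends removed. Among the neighbours 1 was called higher with library totals or at an adjusted p below 0.01, 0 without Empty 2 and 3 or with the log2 limit, and 1 to 2 with single libraries left out. The number called lower was 1 with library totals, without the expression filter and with DESeq2, and 0 to 2 with single libraries left out. Among the list genes 12 were higher and 5 lower, against 6 and 0 without Empty 2 and 3, 7 and 1 at an adjusted p below 0.01, 1 and 1 with the log2 limit, 8 lower with library totals, and 5 to 16 higher and 1 to 10 lower with single libraries left out.

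Several named genes with values near 0 changed sign. ADAMTSL1 was at −0.097 and SLC44A1 at −0.063 with the gene span trend removed. CALM2 was at 0.017 with the span trend and 0.12 with length and GC trends removed, and from −0.085 to 0.072 with single libraries left out. CANX was at 0.017 without Empty 2 and 3, 0.010 and 0.062 with the respective trends removed, and from −0.038 to 0.017 with single libraries left out. CHRNB2 was at −0.019 with library totals, −0.060 with length and GC trends removed, and from −0.019 to 0.039 with single libraries left out. FTL was at 0.22 without Empty 2 and 3, HYKK from −0.060 to 0.27 with single libraries left out, and SLC44A1 at −0.031 with library totals, −0.073 without Empty 2 and 3 and −0.026 to 0.048 with single libraries left out. The cause of these changes was not tested. For CHRNA3 and ADAMTS7, with 43 to 68 counts in each Empty library, counting error limits the precision of the Empty values.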
